A study of Mus musculus with 16 samples.

Results

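Oxidative phosphorylation genes encode the respiratory chain and the ATP synthase of the mitochondrial inner membrane. Members were chosen by symbol alone, as every gene of the deposited table whose symbol starts with Nduf, Uqcr, Sdh, Atp5, Cox4, Cox5, Cox6, Cox7, Cox8 or mt-. The rule found 102 of 9223 genes. Of these, 76 encode nuclear subunits, 13 are the mRNAs of the mitochondrial genome, and 13 share a prefix without encoding a subunit. Single-cell RNA sequencing had profiled CD8+Thy1.1+ Pmel T cells, whose transgenic receptor recognizes gp100, a protein of melanoma and of normal melanocytes. They came from the skin, lung, liver and draining lymph node of C57BL/6 mice aged 16 weeks with melanoma-associated vitiligo, at day 45 after tumor surgery. Every group shared that receptor, strain, disease state and age, and no group without vitiligo or without the transgene was analysed here. With 1 library per tissue there is no replicate and no difference was tested, and intervals are exact 95% intervals that cover counting error only.

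Complexes I to IV pass electrons from NADH and succinate to oxygen, and complexes I, III and IV pump protons that complex V, the ATP synthase, uses to make ATP. The mitochondrial genome supplies core subunits of complexes I, III, IV and V, while the nucleus supplies all of complex II and most other subunits, so both genomes must be expressed for assembly. In CD8 T cells, effector cells are known to lean on glycolysis, and memory cells are known for a reserve of mitochondrial respiratory capacity.

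The table held 1224 skin, 2322 lung, 556 liver and 1625 lymph node cells, with median depths of 2518, 2943, 3096 and 2649 counts per cell, and 19 barcodes occurred in more than 1 tissue. Markers of CD8 T cells were detected in at least 99.96% of the cells of every tissue, and none of the listed melanocyte, hepatocyte or erythroid markers was in the table. Of 5 B cell markers 4 were in the table, and they summed to 2.13 CPM (counts per 1000000 counts) in skin, 21.9 in lung and 14.0 in liver, against 26.9 in lymph node, and the airway gene Scgb1a1 to 0.304, 15.2, 7.78 and 0 CPM. All 5 myeloid markers were in the table and summed to 361 to 451 CPM, with 1 or 2 of them at 0 in each tissue. Krt10, the keratinocyte marker in the table, was at 10.6 CPM in skin, 2.73 in lung and 2.07 in liver, against 10.1 in lymph node, and Pecam1, the endothelial one, at 6.38 to 13.9 CPM. The part of these cells' RNA in the results was not tested. Column names of skin and lymph node cells carry a 2 that those of lung and liver cells lack, and 14 genes named as -ps pseudogenes summed to 7766 CPM in skin, 2149 in lung and 2103 in liver, against 7074 in lymph node. Comparisons of lung or liver with lymph node cross this difference between libraries, and there tissue and library cannot be told apart. Skin against lymph node and lung against liver lie within it. The lymph node was dissociated mechanically, while skin, lung and liver were digested with enzymes. In every comparison with lymph node, skin included, tissue and dissociation cannot be told apart.

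Levels are CPM of a tissue's pooled counts. The scale sets the direction of many small differences. Over all genes tested, the median log2 ratio to lymph node was -0.20 for skin, -0.41 for lung and -0.45 for liver, and it was 0.04 for lung over liver. Size factors, which set the typical gene to no change, raised the log2 ratios to lymph node by 0.20 in skin, 0.40 in lung and 0.43 in liver. Levels, ratios and calls below are on the CPM scale unless size factors are named.

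The nuclear subunits summed to nearly the same level in every tissue. Their 76 mRNAs made up 26246 CPM in skin, 26352 in lung and 25356 in liver, against 25159 in lymph node. The sum was 1.04 times the lymph node level in skin (1.03 to 1.05), 1.05 times in lung (1.04 to 1.05) and 1.01 times in liver (0.997 to 1.02). The interval of the liver ratio held equality. With size factors these ratios were 1.19, 1.38 and 1.36, so the nuclear subunits stood above the typical gene in all 3 peripheral tissues. When ribosomal protein genes were left out of the total, the skin sum was 0.977 times that of lymph node; these genes took 18.3% of counts in skin and 23.4% to 23.6% in the other tissues.

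The mitochondrially encoded mRNAs followed a different order. The 13 mRNAs summed to 16242 CPM in skin, 18718 in lung and 19936 in liver, against 17063 in lymph node. Skin stood at 0.952 times the lymph node level (0.941 to 0.962), a direction that size factors turned, to 1.09. Lung stood at 1.10 times (1.09 to 1.11) and liver at 1.17 times (1.15 to 1.18), and size factors left both above lymph node. Lung was at 0.939 times the liver level (0.928 to 0.949).

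The balance between the genomes does not depend on the scale, because both sums come from the same cells. Nuclear counts exceeded mitochondrial counts by a ratio of 1.62 in skin (1.60 to 1.63), 1.41 in lung (1.40 to 1.42) and 1.27 in liver (1.255 to 1.289), against 1.47 in lymph node (1.46 to 1.49). Skin had the highest ratio and liver the lowest, and no interval overlapped another. The ratio also varied within a tissue, and in skin it was 1.42 below and 1.76 at or above the median depth. Without the cycling cells described below it was 1.53 in skin, 1.36 in lung and 1.23 in liver, against 1.46 in lymph node. As a fold between the highest and the lowest tissue, complex IV showed the widest span. Its nuclear counts were 1.04 times its mitochondrial counts in skin, 0.841 times in lung and 0.765 times in liver, against 0.923 times in lymph node. Complex I ranged from 2.25 in liver to 2.89 in skin, complex III from 1.36 in lymph node to 1.61 in lung, and complex V from 1.59 in liver to 1.73 in skin. Cyc1, a complex III subunit whose symbol lies outside the rule, is not part of any complex III value given here.

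**Figure D1:**
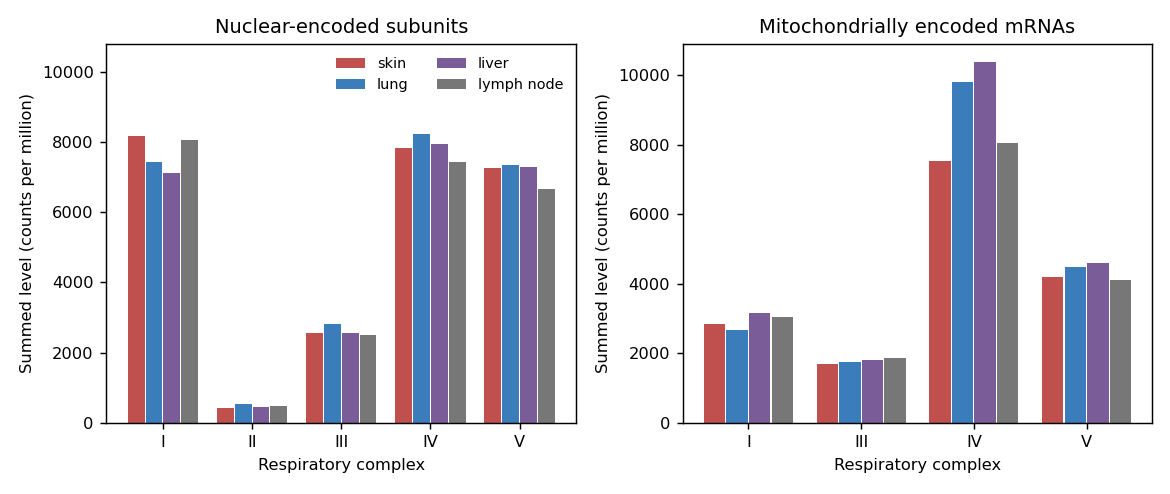
Summed level in CPM (vertical axes, from 0) of the nuclear subunits of each complex (left) and of the mitochondrially encoded mRNAs of each complex (right), with 1 bar per tissue and no replicates. Mitochondrial complex IV mRNAs sum to 7523 in skin, 9798 in lung and 10374 in liver, against 8041 in lymph node, and nuclear complex I subunits to 8167, 7439, 7116 and 8072; with size factors all 6 ratios of skin, lung and liver to lymph node in these 2 sums are above 1.

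By complex, the nuclear sums moved apart in lung and liver. Complex I, the NADH dehydrogenase and the largest of the complexes, summed to 8167 CPM in skin, 7439 in lung and 7116 in liver, against 8072 in lymph node. Its ratio to lymph node was 0.922 in lung (0.910 to 0.934) and 0.882 in liver (0.864 to 0.899), and size factors turned both, to 1.22 and 1.19. As log2 ratios in CPM these sums were at -0.12 in lung and -0.18 in liver. The median over the 36 genes was -0.06 in lung and -0.15 in liver. Complex IV, cytochrome c oxidase, was 1.11 times the lymph node level in lung (1.10 to 1.12) and 1.07 times in liver (1.05 to 1.09). Complex V stood at 1.10 times in both, with intervals of 1.09 to 1.12 and 1.07 to 1.12. Since 1 scale applies to all complexes of a tissue, the lower ratio of complex I than of complexes IV and V in lung and liver holds under either scaling. In skin the ratios of complexes I, IV and V were closer together, at 1.01, 1.06 and 1.09. Complexes II and III stood at 0.896 and 1.02 in skin, and all 5 ratios were above 1 with size factors. Complex II, succinate dehydrogenase, summed to 435 CPM in skin, 522 in lung and 447 in liver, against 486 in lymph node.

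Within complex I, the 7 nuclear core subunits, which take electrons from NADH and pass them on to ubiquinone, summed to 711 CPM in skin, 767 in lung and 674 in liver, against 738 in lymph node. The 29 accessory subunits summed to 7456, 6672, 6442 and 7334 CPM. In lung the core sum was 1.04 times the lymph node level (0.997 to 1.09) and the accessory sum 0.910 times (0.897 to 0.922), with intervals that did not overlap. In liver the core ratio was 0.914 (0.857 to 0.975) and the accessory ratio 0.878 (0.860 to 0.897), with overlapping intervals. Size factors put the core and accessory ratios at 1.37 and 1.20 in lung and at 1.23 and 1.19 in liver. In CPM, the 4 complex I genes called lower in lung, Ndufa5, Ndufc1, Ndufa3 and Ndufb4, are all accessory. Of these, Ndufc1, Ndufa5 and Ndufb4 follow the split of the libraries given below. Their part in the complex I and accessory sums was not tested.

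Single genes were called where one tissue exceeded the other by at least 25%, the interval of the ratio excluded 1 and the summed count of both tissues was at least 20. Of the 76 nuclear subunit genes, 75 had enough counts. Cox6b2, the testis form of a complex IV subunit, had 7 counts in skin, 5 in lung and 2 in liver, against 1 in lymph node. For skin over lymph node, 8 of 75 were called higher and 6 lower, while 12.9% and 28.4% of all 8961 genes tested were. For lung over lymph node, 11 were called higher and 9 lower, against 9.63% and 47.5% of all genes. For liver over lymph node, 6 were called higher and 17 lower, against 9.12% and 39.6%. For lung over liver, 2 were called higher and 0 lower, against 6.82% and 6.29%. The median log2 ratios of the 75 were 0.07, 0.01, -0.08 and 0.09, each above the all-gene median of its comparison. With size factors the counts became 29 higher and 2 lower in skin, where 20.5% and 17.3% of all genes were called. They became 48 and 2 in lung, where 25% and 22.5% of all genes were called, and 43 and 1 in liver, where 22.1% and 15.6% were. Lung over liver kept 2 higher and 0 lower under size factors, against 5.82% and 7.24% of all genes.

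The levels varied little between tissues. The highest tissue exceeded the lowest by a median of 1.30-fold among the 75 nuclear subunits, and stayed under the 25% of the call rule for 30 of them. Only Ndufa5 reached 2-fold among the 75. Among the 5760 genes with at least 20 counts in every tissue the median was 1.65-fold, 11.1% stayed under 25% and 28.9% reached 2-fold. Counting error, which is larger at low counts, is part of each range. In CPM, skin was the highest tissue for 32 of the 76 nuclear subunits, lung for 23, liver for 7 and lymph node for 14. With size factors these numbers became 21, 37, 15 and 3.

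**Figure D2:**
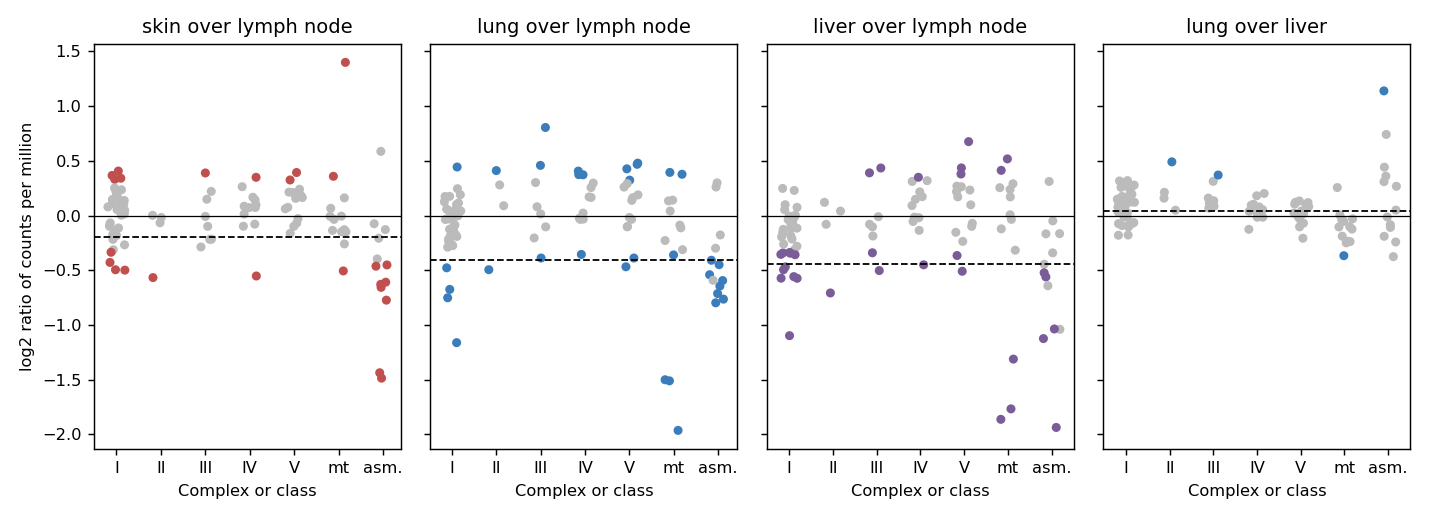
Each point is a gene, placed by its log2 ratio of CPM (vertical axis) for 4 comparisons (the tissues over lymph node, then lung over liver), and grouped as nuclear subunits of complexes I to V, mitochondrially encoded mRNAs (mt) and assembly factors and others by prefix (asm.). Colored points passed the call rule, grey points did not, and the dashed line is the median over all genes tested, at -0.20, -0.41, -0.45 and 0.04; size factors move this line to about 0.

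In skin, the genes called higher than in lymph node included Atp5b, which encodes the catalytic beta subunit of the ATP synthase. Atp5b was at 612 CPM in skin, against 466 in lymph node, 1.31 times (1.24 to 1.40), with 558 in lung and 560 in liver. Cox6c, a small complex IV subunit, stood at 1007 CPM in skin, 771 in lung and 779 in liver, against 790 in lymph node. In CPM, Cox6c in skin was at 1.27 times lymph node (1.21 to 1.34), while lung and liver were at 0.976 and 0.987 times. Size factors raised the Cox6c ratios to 1.46 in skin, 1.29 in lung and 1.33 in liver, all called higher than lymph node. Uqcrq, a complex III subunit, was at 405 CPM in skin, 327 in lung and 293 in liver, against 309 in lymph node, and size factors put the liver ratio above 1 too, at 1.28. The complex I accessory genes Ndufa1 and Ndufa12 were 1.26-fold and 1.29-fold higher in skin than in lymph node, and Ndufa12 was at 224 CPM in skin, 156 in lung and 143 in liver, against 174 in lymph node. Lung and liver lay below lymph node for Ndufa12, at 0.896 and 0.823 times, which size factors turned, to 1.18 and 1.11. Ndufv1, the core subunit that binds NADH, Ndufb6 and Atp5c1 made up the 8. With ribosomal protein genes left out of the total, 0 nuclear subunits were called higher in skin, and without cycling cells 4 were.

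Cox7a2l was called lower in skin alone of the 3 peripheral tissues. Its product, also called SCAF1, is known to join complexes III and IV in supercomplexes. Cox7a2l was at 337 CPM in skin, 589 in lung and 574 in liver, against 494 in lymph node. The skin level was 1.47-fold lower than that of lymph node (1.36 to 1.58), and size factors left it lower, at a ratio of 0.781. Lung and liver did not differ beyond counting error, with a ratio whose interval held 1. In GENCODE M21 (GRCm38) the gene lies on the minus strand of chromosome 17 from 83501918 to 83517330. Relative to its homolog Cox7a2, a subunit of complex IV, Cox7a2l counts were 0.682 times in skin (0.632 to 0.737), 1.46 times in lung (1.40 to 1.53) and 1.45 times in liver (1.32 to 1.59), against 1.20 times in lymph node (1.13 to 1.28). Only in skin did Cox7a2 counts exceed those of Cox7a2l among the 4 libraries.

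Ndufa3, Sdha, Ndufs4 and Ndufa10 were the next genes called lower in skin. Size factors left their skin ratios below 1, at 0.812, 0.773, 0.810 and 0.851, but of these 4 only Sdha was still called. Sdha encodes the flavoprotein that oxidizes succinate in complex II, and it was at 92.0 CPM in skin, 96.8 in lung and 83.5 in liver, against 136 in lymph node. Lymph node was the high tissue, while the ratios to it were 0.675 in skin (0.586 to 0.776) and 0.612 in liver (0.512 to 0.729). Under size factors Sdha was at 0.937 times lymph node in lung and 0.827 times in liver, and neither was called. The other subunits of complex II did not share this pattern. Sdhb, the iron-sulfur subunit, was at 192, 236, 212 and 195 CPM in skin, lung, liver and lymph node, Sdhc at 65.6, 69.7, 67.4 and 65.5, and Sdhd at 85.4, 119, 84.5 and 89.4. Ndufa3, a complex I accessory gene, was at 405 CPM in skin, 358 in lung and 405 in liver, against 571 in lymph node, again highest in lymph node. Ndufs4, another accessory gene, was 1.41-fold lower in skin than in lymph node (1.24 to 1.62).

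In lung, Uqcrfs1 had the highest ratio of the nuclear subunits. It encodes the Rieske iron-sulfur protein, which passes electrons within complex III, and lies on chromosome 13 from 30540308 to 30545362. Uqcrfs1 was at 167 CPM in skin, 293 in lung and 227 in liver, against 168 in lymph node. Lung was 1.75-fold above lymph node (1.61 to 1.90) and 1.29-fold above liver (1.17 to 1.43), and the skin and lymph node levels nearly coincided. Uqcrh, the hinge protein of complex III, was at 666 CPM in skin, 979 in lung and 934 in liver, against 713 in lymph node. Both lung and liver were above both other tissues for Uqcrh. Atp5c1, Atp5d and Atp5h, which encode the gamma and delta subunits of the central stalk and a subunit of the peripheral stalk of the ATP synthase, were 1.39-fold, 1.38-fold and 1.34-fold higher in lung than in lymph node.

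Atp5c1, Atp5d and Atp5h were called higher in liver too. Atp5d was at 371 CPM in skin, 442 in lung and 510 in liver, against 319 in lymph node, and its liver ratio to lymph node of 1.60 (1.47 to 1.73) was the highest of the nuclear subunits there. Cox4i1, the regulatory subunit IV of cytochrome c oxidase, was at 1003 CPM in skin, 1203 in lung and 1157 in liver, against 907 in lymph node. Liver was 1.27-fold above lymph node for Cox4i1 (1.21 to 1.34).

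Ndufa5 had the lowest ratio to lymph node of the nuclear subunits in both lung and liver. This accessory subunit of the matrix arm of complex I is encoded on chromosome 6 from 24518666 to 24528013. Ndufa5 was at 172 CPM in skin, 95.8 in lung and 100.1 in liver, against 214 in lymph node. It was 2.24-fold lower in lung (2.03 to 2.46) and 2.14-fold lower in liver (1.83 to 2.51), and size factors left ratios of 0.590 and 0.631. Ndufc1, Ndufa3 and Ndufb4 were also called lower in both tissues, at 0.594, 0.626 and 0.718 times lymph node in lung and 0.672, 0.710 and 0.672 times in liver. Of the 17 subunit genes called lower in liver, 11 belong to complex I, and for lung it was 4 of 9. Complex I holds 36 of the 75 genes tested. Of these 36, 30.6% were called lower in liver and 11.1% in lung, against 39.6% and 47.5% of all genes. With size factors 1 of 36 complex I genes, Ndufa5, was called lower in liver and 2, Ndufa5 and Ndufc1, in lung.

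Between lung and liver, whose libraries share the same naming, 2 nuclear subunit genes were called. Besides Uqcrfs1, these held Sdhd, which encodes a membrane anchor of complex II. It was 1.41-fold higher in lung than in liver (1.19 to 1.67). All 8 nuclear genes of complex III found by the rule, all 4 of complex II and all 7 core genes of complex I had lung over liver ratios above 1. So did 56 of the 75, and 4907 of all 8867 genes tested. Only Uqcrfs1 and Sdhd of the 75 were called. Size factors left the 3 groups as they were, with 51 of the 75 above 1. The ratios of complex V ran both ways, with 9 of 15 above 1, and 7 of 15 with size factors.

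**Figure D3:**
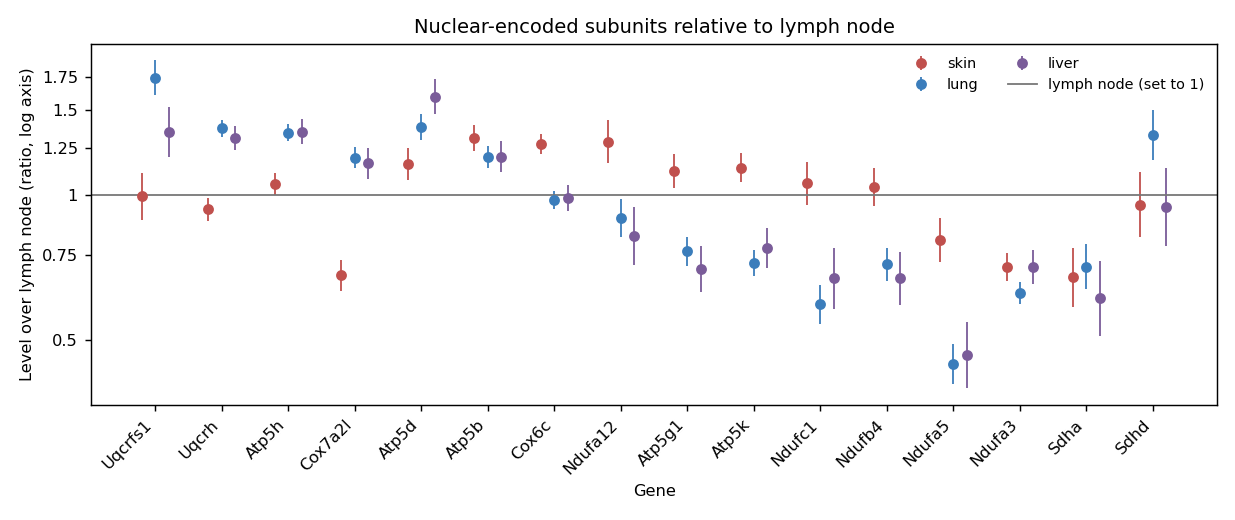
Ratio of the level in skin, lung and liver to that in lymph node (log axis, lymph node set to 1) for 16 nuclear subunit genes, with exact 95% intervals for counting error. Skin is at 0.682 for Cox7a2l while lung and liver are above 1, lung reaches 1.75 for Uqcrfs1, and lung and liver are at 0.447 and 0.467 for Ndufa5; with size factors these values become 0.781, 2.31, 0.590 and 0.631.

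Several of these genes followed the split of the libraries. In CPM, lung and liver both lay at least 25% above both skin and lymph node for Uqcrh, Uqcrfs1 and Atp5h, 3 of 75 nuclear subunits, where 5.17% of the 9032 genes with at least 40 counts over the 4 tissues did. Skin and lymph node both lay at least 25% above lung and liver for Ndufc1, Ndufa5, Ndufb4, Atp5k and Atp5g1, 5 of 75, where 26.1% of genes did. mt-Co1 and mt-Co2 lay above in the same way, while mt-Atp8, mt-Nd4l and mt-Nd6 went with the second group. For these genes library and tissue cannot be told apart.

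Isoform pairs could be compared within a tissue, which needs no scale. Atp5g1, Atp5g2 and Atp5g3 encode the same mature subunit c, the ring protein of the ATP synthase, from 3 genes. Atp5g1 counts were 1.08 times those of Atp5g2 in skin (0.989 to 1.17), 0.622 times in lung (0.587 to 0.659) and 0.588 times in liver (0.520 to 0.665), against 0.896 times in lymph node (0.833 to 0.964). Lung and liver did not differ beyond counting error and both lay below skin and lymph node. Atp5g1 itself was at 348, 237, 218 and 310 CPM in skin, lung, liver and lymph node, and Atp5g2 at 323, 381, 370 and 346. Atp5g3 was at 201, 188, 173 and 193 CPM. These genes have close copies, so the authors' assignment of reads could shift counts between them. The alternative forms Cox4i2, Cox6a2, Cox7a1 and Cox8b were looked up but had no matching symbol among the deposited genes.

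Among the complex IV genes of the mitochondrial genome, the highest tissue exceeded the lowest 1.48-fold for mt-Co1, 1.57-fold for mt-Co2 and 1.21-fold for mt-Co3. mt-Co1, the catalytic subunit of cytochrome c oxidase, was at 2665 CPM in skin, 3837 in lung and 3934 in liver, against 2954 in lymph node. mt-Co2, which receives electrons from cytochrome c, was at 1596, 2294, 2499 and 1745 CPM in skin, lung, liver and lymph node. For both genes lung and liver were above skin and lymph node, at 1.30 and 1.33 times lymph node for mt-Co1 and 1.31 and 1.43 times for mt-Co2, and in skin at 0.902 and 0.914 times. Size factors left lung and liver above lymph node and turned the skin ratios, to 1.03 and 1.05. mt-Co3 was at 3261 CPM in skin, 3667 in lung and 3942 in liver, against 3341 in lymph node.

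The complex I mRNAs did not move as a group. mt-Nd1 was at 1337 CPM in skin, 1147 in lung and 1350 in liver, against 1344 in lymph node, with lung lowest on this scale. mt-Nd2 was called lower in lung than in lymph node, at 0.779 times, a direction that size factors turned, to 1.03. It was at 439, 379, 447 and 486 CPM, mt-Nd5 at 131, 101, 100.6 and 125, and mt-Nd4 at 702, 865, 1028 and 840, in skin, lung, liver and lymph node. mt-Nd3 was at 123 CPM in skin, 162 in lung and 208 in liver, against 175 in lymph node. Skin was called lower than lymph node for mt-Nd3, at 0.704 times (0.623 to 0.795), a call that size factors ended, at 0.806, and lung lower than liver, at 0.775 times (0.693 to 0.869). mt-Cytb, the cytochrome b of complex III, was at 1687, 1745, 1809 and 1854 CPM, and mt-Atp6, the proton channel subunit of complex V, at 4047, 4479, 4572 and 4062, in skin, lung, liver and lymph node. Of the 13 mRNAs, skin was called higher than lymph node for 2 and lower for 1, lung for 2 and 4, and liver for 2 and 3, with the all-gene shares given above. With size factors these counts were 2 and 0 in skin, 5 and 3 in lung, and 8 and 2 in liver.

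**Figure D4:**
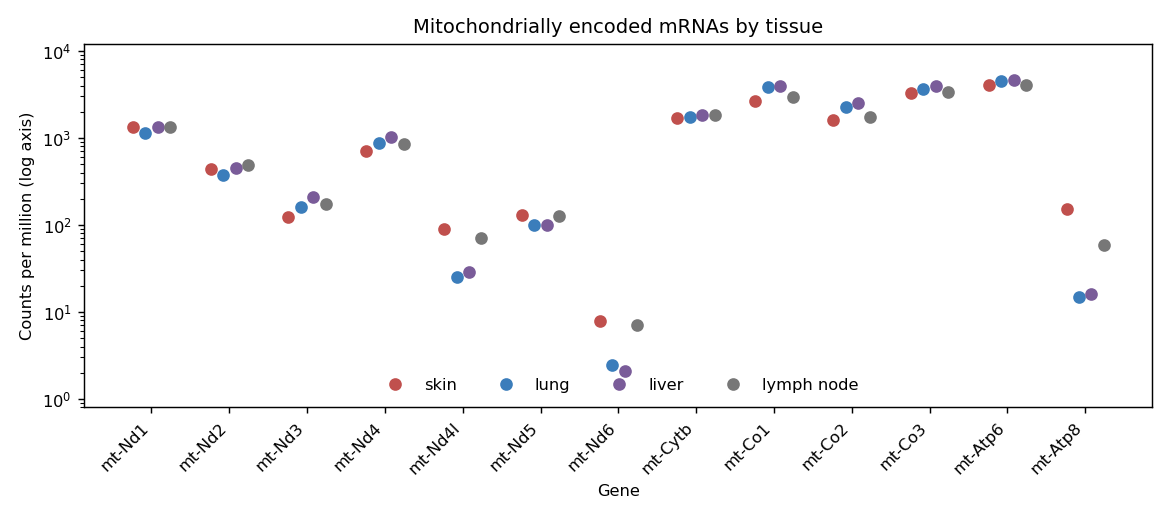
Level of each of the 13 mitochondrially encoded mRNAs in CPM (log axis) in skin, lung, liver and lymph node, 1 point per tissue. Most genes vary by less than 2-fold, while mt-Nd4l, mt-Nd6 and mt-Atp8 are low in lung and liver, with mt-Atp8 at 154 in skin, 15.0 in lung and 16.1 in liver, against 58.5 in lymph node.

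The mRNAs of 3 genes departed from the rest. mt-Atp8, which encodes a small membrane subunit of the ATP synthase, was at 154 CPM in skin, 15.0 in lung and 16.1 in liver, against 58.5 in lymph node. Skin was 2.64-fold above lymph node (2.27 to 3.07), while lung and liver were at 0.256 times (0.205 to 0.319) and 0.275 times (0.183 to 0.400), and size factors left each on its side. mt-Nd4l, a small complex I subunit, was at 90.8, 25.0, 28.5 and 70.8 CPM in skin, lung, liver and lymph node. mt-Nd6, encoded on the other strand from the other 12 mRNAs, was at 7.90, 2.48, 2.07 and 7.06 CPM. The 3 genes share the split of the libraries, and their part in the mitochondrial sum is small: without them the sum was 0.945, 1.10 and 1.18 times lymph node in skin, lung and liver.

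mt-Atp8 and mt-Nd4l are each known to share 1 transcript with the gene that follows, and the reading frames overlap. In GENCODE M21 (GRCm38), mt-Atp8 runs from 7766 to 7969 of the mitochondrial genome and mt-Atp6 from 7927 to 8607, so they share 43 bases. mt-Nd4l runs from 9877 to 10173 and mt-Nd4 from 10167 to 11544, with 7 shared bases. The overlaps are shown because a read inside them belongs to both genes. Each sequence is on the plus strand, 5′ to 3′, with 20 bases on either side, and capitals mark the bases that both genes hold.
mt-Atp8 and mt-Atp6, from 7907 to 7989: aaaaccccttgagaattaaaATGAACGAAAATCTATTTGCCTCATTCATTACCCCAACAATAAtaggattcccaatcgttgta
mt-Nd4l and mt-Nd4, from 10147 to 10193: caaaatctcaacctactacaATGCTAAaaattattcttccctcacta

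Set against its partner, mt-Atp8 had 3.81% of the counts of mt-Atp6 in skin (3.48% to 4.17%), 0.335% in lung (0.278% to 0.400%) and 0.352% in liver (0.239% to 0.4995%), against 1.44% in lymph node (1.27% to 1.63%). mt-Nd4l had 12.9% of the counts of mt-Nd4 in skin (11.4% to 14.6%), 2.89% in lung (2.50% to 3.33%) and 2.77% in liver (2.08% to 3.63%), against 8.43% in lymph node (7.50% to 9.45%). For both pairs lung and liver were alike within counting error, and skin stood above lymph node. Lung and liver were also lowest for the -ps genes given above. How the authors' counting shared reads between overlapping genes, and whether it used strand, is not given by the sources, and its part in these ratios was not tested. For mt-Nd6, whose end overlaps that of mt-Nd5 on the opposite strand, the counts were 26 in skin, 20 in lung and 4 in liver, against 32 in lymph node.

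The 13 genes that share a prefix without encoding a subunit are mostly assembly factors, which help to build a complex and then leave it. Together they summed to 263 CPM in skin, 296 in lung and 274 in liver, against 386 in lymph node. The ratio to lymph node was 0.681 in skin (0.627 to 0.739), 0.766 in lung (0.720 to 0.816) and 0.709 in liver (0.642 to 0.782). With size factors the skin ratio stayed below 1, at 0.780, while lung and liver came to 1.01 and 0.957. Lymph node was the highest tissue for 10 of the 13, and for 5 with size factors. Called lower than in lymph node were 8 in skin, 8 in lung and 5 in liver, and none was called higher, beside the all-gene shares of 28.4%, 47.5% and 39.6%, so the liver count lies near its background. With size factors 0 were called higher and 5 lower in skin, 2 and 1 in lung, and 2 and 2 in liver.

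Sdhaf1, which guards the iron-sulfur subunit of complex II during assembly, was at 12.8 CPM in skin, 20.6 in lung and 9.34 in liver, against 35.7 in lymph node. Ndufaf1, an early assembly factor of complex I, was at 6.68, 10.7, 8.30 and 18.1 CPM in skin, lung, liver and lymph node. Ndufaf4 was at 30.4, 31.7, 23.3 and 47.9 CPM and its partner Ndufaf3 at 44.3, 37.3, 42.5 and 61.1. Sdhaf2, which is needed to attach the flavin to Sdha, was low in skin too, but not in lung, and in liver it was near lymph node. It was at 33.4 CPM in skin, 61.1 in lung and 49.3 in liver, against 51.0 in lymph node. Atp5s and Atp5sl, which RefSeq lists as Dmac2l and Dmac2, are not subunits of the ATP synthase; they were at 3.11 to 7.29 and 17.0 to 24.4 CPM.

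Across single cells, nuclear subunits took a median of 2.54% of a cell's counts in skin, 2.58% in lung and 2.47% in liver, against 2.48% in lymph node. Cells of skin spread most, with an interquartile range of 2.21% to 2.92%, against 2.21% to 2.76% in lymph node. Mitochondrial mRNAs took medians of 1.60%, 1.87%, 1.98% and 1.65% in skin, lung, liver and lymph node. The highest share of any cell was 4.99% in skin, 4.89% in lung and 4.97% in liver, against 4.95% in lymph node. No cell exceeded 5%, and the sources do not state whether cells were filtered on this share. Across cells, the Spearman correlation of the 2 shares was -0.13 in skin, -0.01 in lung and -0.06 in liver, against -0.19 in lymph node, over cells that share library and total.

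**Figure D5:**
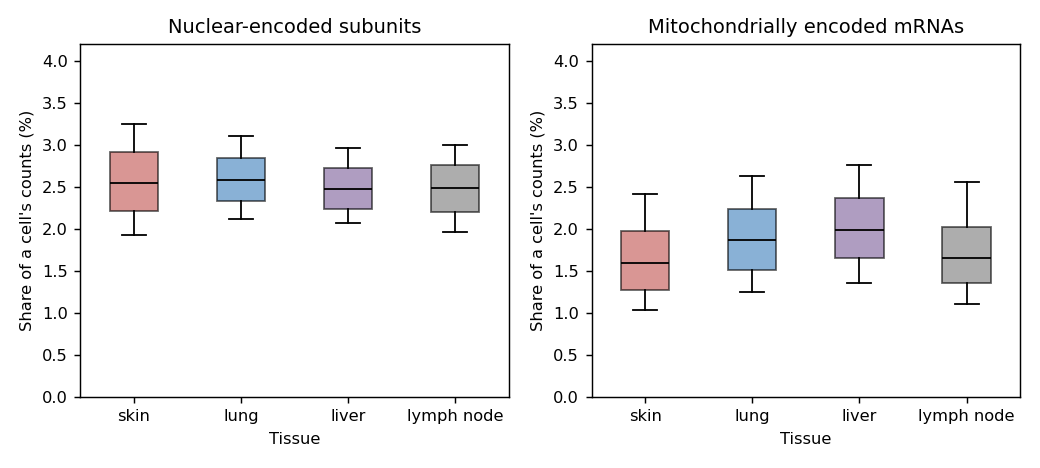
Share of a cell's counts (percent, vertical axes) from nuclear subunits (left) and from mitochondrially encoded mRNAs (right) by tissue, with the line at the median, the box at the interquartile range and the whiskers at the 10th and 90th percentiles of cells. Nuclear medians lie between 2.47% and 2.58%, and mitochondrial medians between 1.60% in skin and 1.98% in liver; cells are not replicates.

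Depth moved with both shares in every tissue. In cells at or above their tissue's median depth, nuclear subunits took 2.72% of pooled counts in skin, 2.67% in lung and 2.58% in liver and 2.57% in lymph node cells, and in shallower cells 2.48%, 2.56%, 2.45% and 2.44%. Mitochondrial mRNAs went the other way, at 1.55%, 1.82%, 1.91% and 1.62% in deeper cells against 1.75%, 1.98%, 2.14% and 1.84% in shallower ones. Within each depth class, liver kept the highest mitochondrial share and skin the lowest. The classes did not match depth between tissues. Median counts of the deeper cells were 2944.5 in skin, 4172 in lung and 3963.5 in liver, against 3101 in lymph node.

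Cycling cells, those with at least 3 counts over 19 cell cycle genes, carried more nuclear subunit mRNA for their counts. They numbered 98 in skin, 206 in lung and 47 in liver, against 51 in lymph node. Nuclear subunits stood at 32112 CPM in cycling and 25407 in other skin cells, a ratio of 1.26 (1.24 to 1.29), and the ratio was 1.15 in lung (1.14 to 1.16) and 1.15 in liver (1.12 to 1.18), against 1.17 in lymph node (1.14 to 1.20). Complex III was the exception in lung, at 0.961 (0.927 to 0.995), and its interval held 1 in liver and lymph node. In skin its ratio was 1.12 (1.05 to 1.19). The complex II interval also held 1 in lymph node. The mitochondrial sum was 0.811 times that of other cells in skin, 0.935 in lung and 0.943 in liver, against 0.965 in lymph node. All 75 nuclear subunits could be called, and 43 were higher in cycling skin cells and 2 lower, where 13.5% and 5.41% of all genes were. In lung 19 were higher and 3 lower, against 9.3% and 12.6%. In liver 18 were higher and 1 lower, against 9.41% and 6.22%, and in lymph node 23 and 1, against 7.76% and 4.07%. Cycling cells were deeper, with median counts of 3809 in skin, 6697 in lung and 6010 in liver and 4276 in lymph node cells, and other cells had 2489, 2804, 3002 and 2631. The part of depth in these ratios was not tested. Without cycling cells the nuclear sum in skin was 1.02 times that of lymph node.

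Nuclear subunit genes are known targets of the transcription factors NRF1, of GABP from the ETS family and of YY1. RefSeq promoters (GRCm38.p6) of 300 bases, 250 before to 50 after the start, were matched for 65 of the 76 nuclear subunits. For 59 of the 65 the bases just after the start lay in a GENCODE transcript of the gene, and for the other 6 (Ndufa1, Ndufa9, Ndufb2, Sdhd, Cox5a and Atp5g1) they did not. The motif GCGCATGC for NRF1, read on both strands, was in 15.4% of the 65, against 6.26% of 7414 promoters of genes in the table and 2.80% of all 27025. The ETS motif CCGGAAG was in 23.1%, against 21.9% and 9.12%, and the YY1 motif AAGATGGC in 13.8%, against 5.66% and 2.88%. Over the 59 alone, a choice made after seeing the data, the shares were 16.9%, 23.7% and 13.6%. All 9 subunits with the YY1 letters belong to complexes I and V, 7 of them to complex I. None of these 9 held the YY1 letters within the 250 bases before the start. In the 250 bases before the start, matches of different motifs did not overlap, but GCGCATGCGC holds the NRF1 letters on both strands. A match is a description and no binding was measured.

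Ratios by motif were set side by side. The 10 subunits with the NRF1 letters had a median log2 ratio to lymph node of 0.14 in skin, -0.01 in lung and -0.07 in liver, against 0.07, -0.01 and -0.08 for the 54 without that could be tested. The 15 with the ETS letters had 0.07, 0.17 and -0.0048, against 0.08, -0.03 and -0.12 for 49 without. The 9 with the YY1 letters had -0.16, -0.13 and -0.34, against 0.09, 0.03 and -0.05 for 55 without. The SD of the log2 ratio over the 75 nuclear subunits was 0.23 in skin, 0.32 in lung and 0.30 in liver, and the differences were not tested. The promoters of 3 genes follow, of a gene low in CPM in lung and liver, of one with 2 of the motifs before its start and of one high in lung and liver. Each shows the 250 bases before the start on the gene's strand (minus for all 3), with motif letters in capitals. The full Atp5k window also holds the ETS letters, but not within the bases shown.
Atp5k at chr5:108434400-108434649, NRF1 letters: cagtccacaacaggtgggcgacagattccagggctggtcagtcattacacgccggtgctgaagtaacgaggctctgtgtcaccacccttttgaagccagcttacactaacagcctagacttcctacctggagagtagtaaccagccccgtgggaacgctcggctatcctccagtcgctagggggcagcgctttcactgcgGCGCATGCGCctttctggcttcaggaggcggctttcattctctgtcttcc
Cox6a1 at chr5:115348959-115349208, NRF1 and ETS letters: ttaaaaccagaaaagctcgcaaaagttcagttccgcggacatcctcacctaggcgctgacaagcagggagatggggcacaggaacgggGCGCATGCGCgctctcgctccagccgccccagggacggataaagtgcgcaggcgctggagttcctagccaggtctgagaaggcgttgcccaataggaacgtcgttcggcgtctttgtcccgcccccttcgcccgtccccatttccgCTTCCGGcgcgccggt
Uqcrh at chr4:116075071-116075320, ETS letters: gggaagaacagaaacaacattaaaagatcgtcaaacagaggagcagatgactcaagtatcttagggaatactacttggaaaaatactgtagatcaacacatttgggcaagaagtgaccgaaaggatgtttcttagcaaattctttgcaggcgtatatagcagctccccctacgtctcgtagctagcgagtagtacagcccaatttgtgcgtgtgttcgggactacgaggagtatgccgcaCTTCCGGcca
Atp5k, subunit e of the ATP synthase, was at 435 CPM in skin, 276 in lung and 296 in liver, against 381 in lymph node. Cox6a1, the common form of a complex IV subunit, was at 753, 656, 611 and 671 CPM.

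Other mitochondrial genes were read by lists, whose counts stand beside the shares of all genes. In CPM, 12.9% of all genes were called higher and 28.4% lower in skin than in lymph node, 9.63% and 47.5% in lung, and 9.12% and 39.6% in liver. With size factors these shares were 20.5% and 17.3% in skin, 25% and 22.5% in lung, and 22.1% and 15.6% in liver. Among 14 genes for electron carriers and exchange across the membrane, 4 were called higher and 0 lower in skin than in lymph node, 2 and 4 in lung, and 4 and 5 in liver, and with size factors 7 and 0, 9 and 0, and 8 and 2. Cycs, the cytochrome c that links complexes III and IV, was at 252 CPM in skin, 217 in lung and 271 in liver, against 157 in lymph node. All 3 peripheral tissues were above lymph node for Cycs, at 1.61 times in skin (1.45 to 1.78), 1.38 in lung (1.26 to 1.51) and 1.73 in liver (1.54 to 1.94). Slc25a5, an ADP/ATP exchanger, was 1.45-fold higher in skin and 1.30-fold higher in lung than in lymph node. Ucp2, an uncoupling protein family member, was lower, at 0.658 times lymph node in lung and 0.552 times in liver, and size factors left both below 1, at 0.869, no longer called, and 0.745. Atpif1, the inhibitor of the ATP synthase, and Usmg5, one of its small subunits under another symbol, were 1.49-fold and 1.38-fold higher in skin, 2 of 3 such genes.

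Of 22 genes for the upkeep of mitochondrial DNA and RNA, 1 was called higher and 7 lower in skin than in lymph node, 1 and 12 in lung, and 1 and 9 in liver. The lower calls were 31.8%, 54.5% and 40.9% of the list, near the all-gene shares, and with size factors the counts became 2 and 4, 3 and 2, and 2 and 3. Tfam, which packages and transcribes mitochondrial DNA, was at 11.8 CPM in skin, against 36.4 in lymph node, at 0.325 times (0.223 to 0.464). Of 76 mitochondrial ribosomal protein genes, 1 was called higher and 34 lower in skin than in lymph node, 7 and 18 in lung, and 3 and 26 in liver, and 15 were higher and 0 lower in lung than in liver. The lower calls came to 44.7% of the list in skin, above the all-gene 28.4%, and to 23.7% in lung and 34.2% in liver, below 47.5% and 39.6%. For lung over liver, 19.7% of the list was called higher, against 6.82% of all genes. With size factors the calls over lymph node turned to 35 higher and 1 lower in lung and 26 and 3 in liver, stayed mostly lower in skin at 6 and 20, and were 11 and 0 for lung over liver. Among 30 assembly factors with other prefixes, 0 were higher and 12 lower in skin, 3 and 15 in lung, and 3 and 12 in liver, lower calls of 40%, 50% and 40% of the list. With size factors these counts became 4 higher and 7 lower in skin, 10 and 4 in lung, and 8 and 5 in liver. Uqcc3 of complex III was at 69.0 CPM in skin, against 135 in lymph node, and stayed called lower under size factors.

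The remaining lists are read beside the same all-gene shares. In skin 12.9% of all genes were called higher and 28.4% lower in CPM, and 20.5% and 17.3% with size factors. In lung the shares were 9.63% and 47.5%, and 25% and 22.5% with size factors. In liver they were 9.12% and 39.6%, and 22.1% and 15.6% with size factors. Of 14 tricarboxylic acid cycle genes, 0 were higher and 3 lower in skin than in lymph node, 2 and 0 in lung, and 0 and 4 in liver, and with size factors 2 and 1, 8 and 0, and 7 and 0. Of 9 genes around pyruvate dehydrogenase, 1 and 1 were called in skin, 0 and 3 in lung, and 0 and 2 in liver, and with size factors 3 and 0, 4 and 1, and 2 and 1. Pdk1, a kinase that turns pyruvate dehydrogenase off, was called lower in all 3 tissues, at 20.7 CPM in skin, 7.93 in lung and 11.9 in liver, against 28.7 in lymph node. Size factors ended the Pdk1 call in skin, at 0.825 times lymph node, and left those in lung and liver, at 0.365 and 0.561. Mpc1, a subunit of the pyruvate carrier, was at 194 CPM in skin, against 130 in lymph node. Of 12 biogenesis regulators, 2 were higher and 4 lower in skin, 0 and 6 in lung, and 1 and 4 in liver, and with size factors 2 and 2, 1 and 0, and 1 and 0. Of 24 import genes, 2 and 8 were called in skin, 3 and 8 in lung, and 3 and 10 in liver, which size factors changed to 4 and 5, 7 and 1, and 6 and 1. In CPM the lower calls were 33.3%, 33.3% and 41.7% of the import list. That is above the all-gene share in skin, below it in lung and near it in liver. Of 9 antioxidant genes, 0 and 1, 0 and 2, and 2 and 3 were called, and with size factors 3 and 0 in each tissue. Within the import list, the chaperone genes Hspd1 and Hspe1 stood at 132 and 401 CPM in liver, against 91.6 and 282 in lymph node, 1.44 and 1.42 times. Tomm6, of the same list, was lower than lymph node in lung, at 0.375 times, and in liver, at 0.291 times. Both Tomm6 calls stayed with size factors, and in skin Tomm6 was called higher, at 1.27 times.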

How the data were processed

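The data are deposited counts (whole numbers) of 9223 genes in 5727 cells, in 1 table. Reads were processed with Bowtie and RSEM on mm10, per the submitters' processing notes, and the sources do not state filters on cells and genes. Skin, lung and liver were digested with enzymes and the lymph node was dissociated mechanically, per the labels' protocols. The 16 samples are 4 per tissue that differ only in a lane-like ending, so each tissue was taken as 1 library. Counts were pooled by column prefix and divided by the tissue's total (3292210 in skin, 8072278 in lung, 1928185 in liver, 4532333 in lymph node). Ratios carry exact conditional binomial intervals, which cover counting error only. The procedure was tested on simulated data. Members, lists and motifs were chosen with earlier results of these data known. Named with values were all mitochondrial mRNAs, isoform families, the 5 nuclear subunits per direction whose interval bound lay farthest from equality, and up to 3 genes per direction of each other list; other members named were chosen after their values were seen. Positions came from GENCODE M21 by symbol. Scrublet (scanpy 1.11.5) was run per tissue, and doublets were kept in the main values. Alternatives were another scaling or total, equal weight per cell, cell filters and other call thresholds. Ndufa4 was counted as a subunit of complex IV.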

Additional observations from a re-analysis of the deposited data

Results flagged for a closer look

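Skin and lung, and skin and liver, lay on opposite sides of lymph node for 2 mitochondrially encoded mRNAs. mt-Atp8 was 10.3-fold higher in skin than in lung and 9.60-fold higher in skin than in liver. mt-Nd4l was 3.63-fold higher in skin than in lung and 3.18-fold higher in skin than in liver. Each tissue gave 1 library, and the difference between the ratios was not tested. Both comparisons cross the difference in library naming between skin and lymph node on one side and lung and liver on the other.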

How the results depend on the processing

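With 1 library per tissue, no result could be checked against another mouse or library. No paired analysis was possible because no result comes from a test. With size factors the nuclear sum over lymph node was 1.19 in skin, 1.38 in lung and 1.36 in liver, and that of lung over liver 1.02. The mitochondrial sum was 1.09 in skin, against 0.952 as reported, 1.45 in lung and 1.58 in liver, and 0.918 for lung over liver. The nuclear subunits called higher over lymph node were then 29 in skin, 48 in lung and 43 in liver, and those called lower 2, 2 and 1. Without ribosomal protein genes in the total, the skin sums over lymph node were 0.977 (nuclear) and 0.891 (mitochondrial), with 0 genes called higher. Without cycling cells the nuclear sums over lymph node were 1.02 in skin, 1.03 in lung and 0.994 in liver, the mitochondrial ones 0.973 in skin and 1.11 in lung, and 4 genes were called higher in skin. A fold of 1.5 left 0 higher and 0 lower in skin, 1 and 3 in lung, 1 and 2 in liver, and 0 higher in lung over liver. With every cell weighted equally the mitochondrial sum was 1.08 for lung over lymph node, and 0.927 for that of lung over liver, where 5 genes were called higher. Without cells below 1886 counts, the mitochondrial sum was 1.12 for lung over lymph node. The cause was not tested. Leaving out mt- genes from the total, other count minimums, and the cell with the most counts of a gene moved no result past its interval or by over 1.5 times, and no cell was above 5% mitochondrial. Scrublet's own threshold marked 94.8% of lymph node cells and was not used; leaving out cells above the 95th percentile of its scores, chosen after seeing the data, moved no result, nor did leaving out mt-Atp8, mt-Nd4l and mt-Nd6, also chosen after seeing the data.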
